A study of Mus musculus with 2 samples.

Results

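Axon guidance ligands and receptors are the cell surface and secreted proteins by which growing axons and migrating cells are attracted or repelled. The members were the rows of the gene table whose symbol belongs to the semaphorins of classes 3 to 7, the plexins, the neuropilins Nrp1 and Nrp2, the ephrins, the Eph receptors, the Slits, the Robos, the netrins, Dcc or the Unc5 names. This name pattern took 69 of 15953 genes, of which 34 encode ligands, 34 encode receptors and 1, Unc50, is a membrane protein gene whose name only resembles the UNC5 receptors. The samples were mouse neural stem cells grown in suspension, with 1 library labelled wild type and 1 labelled Hikeshi conditional knockout (cKO). Hikeshi carries HSP70 chaperones into the nucleus. Neither the labels nor the design text give the Cre line, the age of the mice or the number of animals behind each library.

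Each guidance system pairs a family of ligands with a family of receptors. Secreted class 3 semaphorins bind neuropilins, which signal through plexins, while transmembrane semaphorins mostly bind plexins directly. Ephrins are themselves anchored to the membrane and activate Eph receptor tyrosine kinases on the neighbouring cell. Slits repel through Robo receptors, and netrins attract through DCC and repel through UNC5 receptors. In the developing brain the same molecules also guide neuroblasts and oligodendrocyte precursors and act on progenitors in their niche.

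The libraries held 18912683 (cKO) and 18839079 (wild type) reads, so sampling depth was nearly equal. With 1 library per group there is no replicate check and no test between genotypes. Each ratio below is of CPM (reads per 1000000 counted reads), cKO over wild type or the inverse where lower, with a 95% exact conditional binomial (Clopper-Pearson) interval that covers counting error in these libraries only. Hikeshi itself had 640 reads (cKO) and 718 (wild type), which does not settle the genotype, so directions refer to the labels. The libraries also differed in Y-linked reads: 4 listed genes summed to 2931 (cKO) against 1, such as Ddx3y with 846 against 0. A difference in sex and the genotype labels cannot be told apart here, which also limits the X-linked members Plxnb3, Plxna3 and Efnb1. Of the neural stem cell markers, Sox2 was at 404 and 407 CPM in the cKO and wild-type libraries. The intermediate filament gene Nes was at 780 and 569 CPM. Other markers differed more: of the 22 in the list read below, 3 were at least 1.5-fold higher in the cKO-labelled library and 3 lower. As shares these were 13.6% each, beside 4.22% (higher) and 10.2% (lower) of all genes at 1 CPM in at least 1 library.

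Of the 69 members 58 reached 1 CPM in at least 1 library and were kept. On the log2(CPM + 1) scale, which understates the difference of low genes, 8 of them (13.8%) were at least 1.5-fold higher in the cKO-labelled library, against 4.22% of all 12618 kept genes. Another 18 (31.0%) were at least 1.5-fold lower, against 10.2% of all kept genes. Of these, Sema3b and Slit2 reached 1 CPM only in the wild-type-labelled library, so the filter favoured a lower call for them. Without the filter 18 of 69 members (26.1%) were lower, against 8.39% of all genes. At 2-fold the counts were 4 higher and 10 lower, where 1.25% and 3.85% of all kept genes lay past that fold. The median difference of the kept members was -0.20, beside -0.02 over all kept genes. With 5 CPM added in place of 1, the members counted as lower were 9, while 5.34% of all kept genes were then lower.

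The 8 higher members were the secreted semaphorin genes Sema3a, Sema3c and Sema3e, their receptor gene Nrp1, the ephrin genes Efnb2 and Efna4, and the Eph receptor genes Epha2 and Epha7. The 18 lower members included Plxnb3 and Plxnb1, all of the kept Robo genes, Unc5a and Unc5c, Ephb1, Efnb3 and 6 semaphorin genes. By role, 5 of 29 kept ligands were higher and 9 lower, and 3 of 28 kept receptors were higher and 9 lower. The shares of all kept genes were 4.22% higher and 10.2% lower.

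**Figure D1:**
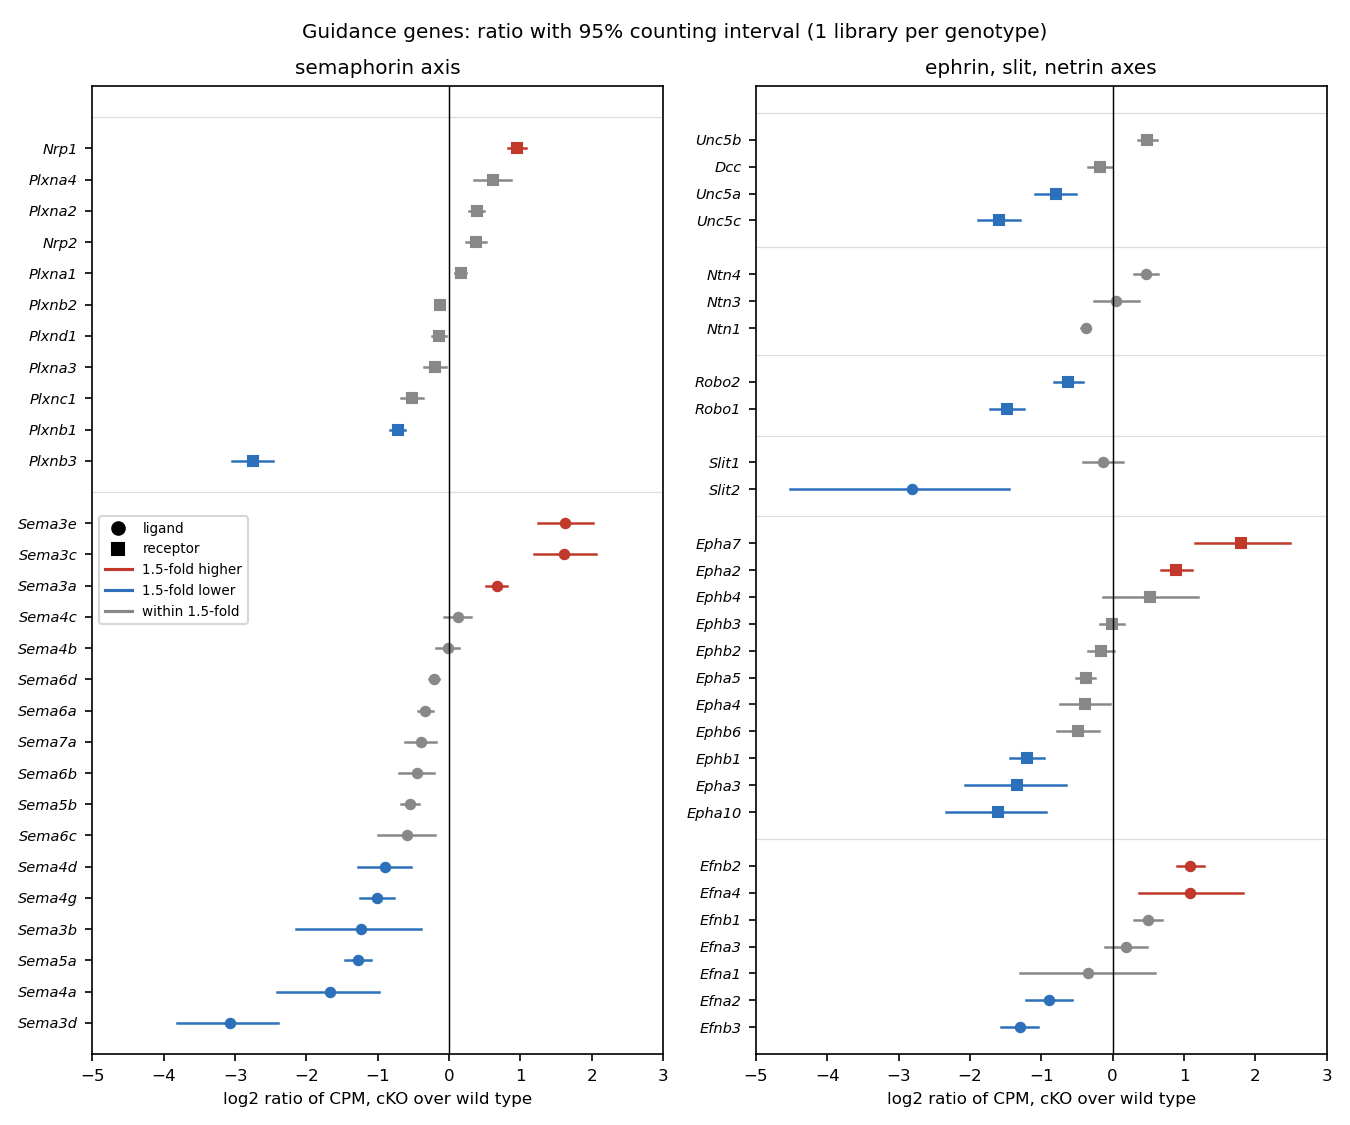
Ratio of CPM, cKO over wild type, on a log2 scale for the 57 kept guidance genes, with circles for ligands, squares for receptors and bars for the 95% counting interval. Sema3d, Slit2 and Plxnb3 lie farthest to the left and Epha7, Sema3e and Sema3c farthest to the right, and the bar of Slit2, with 5 reads against 35, is the widest.

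Class 3 semaphorins are secreted and mostly repulsive. All 5 kept genes of the class were at least 1.5-fold apart, 3 upward and 2 downward, beside 14.4% of all kept genes in either direction. Sema3e, a ligand of plexin D1, had 239 reads in the cKO-labelled library against 77 in the other. Its ratio was 3.09 (2.38 to 4.05). Sema3c, which acts on migrating neural crest and cortical axons, had 191 reads against 62, a ratio of 3.07 (2.29 to 4.16). Sema3a, the collapsing factor of growth cones, was the most abundant of the class per length, at 14.5 TPM (cKO) and 9.33 TPM (wild type). It had 920 reads against 578, a ratio of 1.59 (1.43 to 1.76). On the scale with 1 added, it fell short of 1.5-fold in TPM and after removal of the trend with GC content. Sema3d went the other way and had the largest fold in CPM among the members, with 20 reads against 167, or 8.38-fold lower (5.26 to 14.1). On the scale with 1 CPM added its difference, -2.26, was smaller than that of Plxnb3, -2.57, and the intervals of Sema3d, Plxnb3 and Slit2 overlap. Sema3b was 2.36-fold lower on few reads, 17 against 40 (1.31 to 4.44), and was kept only through the wild-type-labelled library. Sema3f and Sema3g were below the filter, with 14 reads against 8 and 3 against 7. Summed over the class, reads were 1404 against 939, a ratio of 1.49 (1.37 to 1.62), so the higher members outweighed the lower ones.

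Of these genes, 4 lie within 5.35 Mb of chromosome 5 (GRCm38.p6), in the order Sema3d (12383161 to 12588953), Sema3a (13124822 to 13603485), Sema3e (14025276 to 14256689) and Sema3c (17574816 to 17730268). Neighbours on the chromosome thus differed in opposite directions, Sema3d lower and the other three higher in the cKO-labelled library. The 250 bases before the start site of the RefSeq promoter table are shown for Sema3d (chr5:12382916-12383165, plus strand) and Sema3e (chr5:14025026-14025275, plus strand), the members of this cluster with the lowest and the highest ratio. The last bases of the Sema3d window lie inside the gene span given above. They are shown with the same stretch of Efnb2 (chr8:8661243-8661492, minus strand), the higher member of the B-type ephrins described below. Sequences are RefSeq's on GRCm38.p6, read 5′ to 3′ toward the gene, and capitals mark the letters of any motif searched for.
Sema3d: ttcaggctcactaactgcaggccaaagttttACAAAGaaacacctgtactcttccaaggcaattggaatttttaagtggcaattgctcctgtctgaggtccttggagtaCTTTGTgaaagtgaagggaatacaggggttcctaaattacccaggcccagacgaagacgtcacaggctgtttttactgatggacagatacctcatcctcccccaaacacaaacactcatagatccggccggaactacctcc
Sema3e: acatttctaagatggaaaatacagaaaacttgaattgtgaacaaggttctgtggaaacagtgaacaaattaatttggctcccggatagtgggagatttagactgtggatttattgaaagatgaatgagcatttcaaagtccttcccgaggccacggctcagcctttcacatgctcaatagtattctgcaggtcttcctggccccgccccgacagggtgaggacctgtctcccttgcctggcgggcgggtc
Efnb2: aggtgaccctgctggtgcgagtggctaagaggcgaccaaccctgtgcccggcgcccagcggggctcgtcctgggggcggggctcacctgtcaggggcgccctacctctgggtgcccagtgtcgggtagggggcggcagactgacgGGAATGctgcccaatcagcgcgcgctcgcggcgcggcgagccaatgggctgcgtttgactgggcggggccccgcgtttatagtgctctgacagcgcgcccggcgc
The motifs, searched on both strands with overlaps allowed, were ACGTG (the core bound by hypoxia-inducible factors), CAGCTG (an E-box of basic helix-loop-helix factors), ACAAAG (SOX and TCF/LEF factors), GAANNTTC (heat shock factors) and GGAATG (TEAD factors). Sema3d held 2 ACAAAG matches, Sema3e held 0 matches to any motif, and Efnb2 held 1 GGAATG match. Among all 32851 windows of this length in the RefSeq table, 16.5% held ACAAAG and 12.6% held GGAATG. Of the 59 members with a window in that table, 11 held ACGTG, 12 held CAGCTG, 7 held ACAAAG, 8 held GGAATG and 0 held GAANNTTC, a motif present in 6.69% of all windows. ACGTG and CAGCTG were in 16.6% and 13.0% of all windows. A member was counted once if any of its windows matched, so these counts of genes are not shares of windows. A match is a stretch of letters and was not tested as a binding site.

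Both neuropilin genes and 3 of 4 A-type plexin genes, the receptors of class 3 semaphorins, lay above 0, as did 47.8% of all kept genes, and among them Nrp1 was past 1.5-fold. Nrp1 (chromosome 8, 128358591 to 128505476), the neuropilin that binds SEMA3A and also VEGFA, had 1495 reads in the cKO-labelled library against 771 in the other, a ratio of 1.93 (1.77 to 2.11). Nrp2, the neuropilin of SEMA3C and SEMA3F, had 996 against 762, a ratio of 1.30 (1.18 to 1.43) within 1.5-fold. The A-type plexins are the signalling partners of neuropilins. Plxna4 and Plxna2 had ratios of 1.53 (1.28 to 1.83) and 1.31 (1.21 to 1.41), Plxna1 1.12 (1.06 to 1.18) and the X-linked Plxna3 0.872 (0.781 to 0.973). Plxna4 was past 1.5-fold in CPM but not on the scale with 1 CPM added. Plxnd1, the receptor of SEMA3E, had 1500 reads against 1650, a ratio of 0.906 (0.844 to 0.972), while its ligand gene was 3.09-fold higher. Summed reads were 1.62-fold higher (1.52 to 1.73) for the neuropilins and 1.15-fold higher (1.11 to 1.196) for the A-type plexins.

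**Figure D2:**
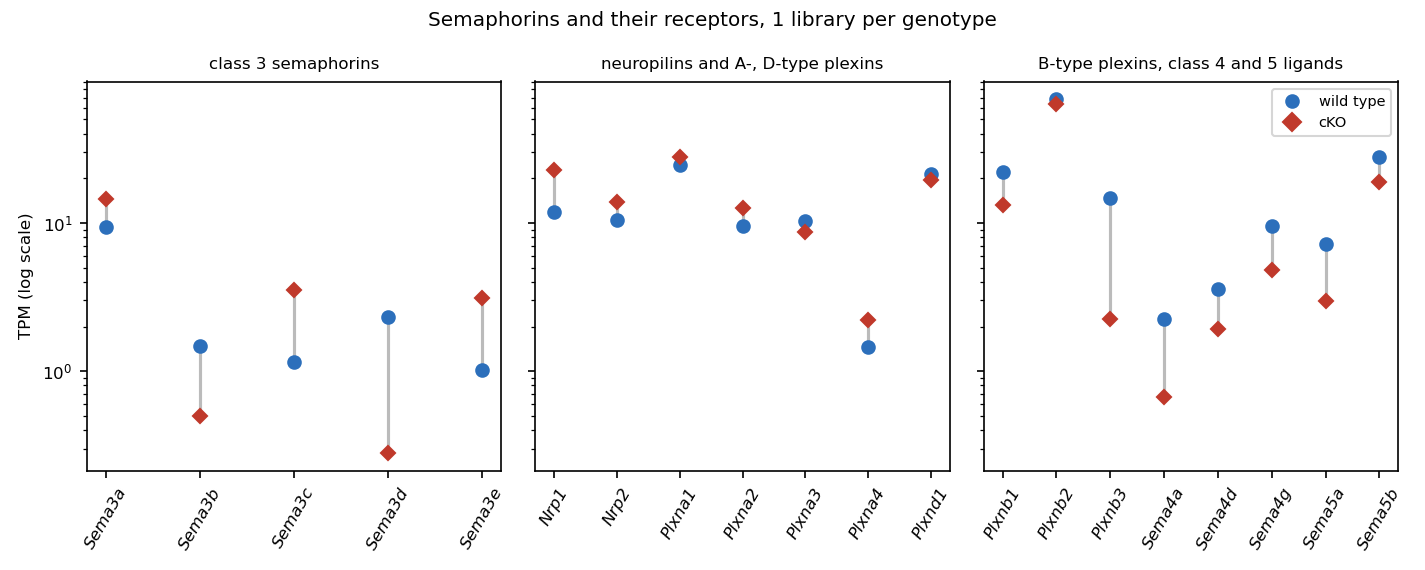
Deposited TPM on a log scale of class 3 semaphorin genes, their neuropilin and plexin receptor genes, and the B-type plexins with class 4 and 5 semaphorin genes, circles for wild type and diamonds for cKO, 1 library each. Sema3a, Sema3c, Sema3e, Nrp1 and Nrp2 were higher in the cKO-labelled library, and Plxnb3, at 2.26 against 14.8 TPM, shows the widest gap among the plexins.

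Transmembrane semaphorins act at cell contacts. Of 11 kept genes of classes 4 to 6, 10 were below 0, where 52.2% of all kept genes lay. At 1.5-fold 4 of them were lower, beside 10.2% of all kept genes, and 0 were higher. Their summed reads were 1.30-fold lower (1.26 to 1.33). Sema5a, a bifunctional guidance cue and ligand of plexin B3, had 355 reads in the cKO-labelled library against 856, or 2.42-fold lower (2.14 to 2.75). Its relative Sema5b had 940 against 1369, 1.46-fold lower (1.35 to 1.59). In class 4, Sema4a was 3.19-fold lower (1.97 to 5.34) with 23 reads against 73. Sema4g had 222 against 445 and was 2.01-fold lower (1.71 to 2.38). Sema4d, the ligand of plexin B1 that oligodendrocytes are known to carry, had 94 against 175 reads, 1.87-fold lower (1.45 to 2.43).

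The most abundant class 4 genes did not share that difference. Sema4b had 624 against 630 reads, a ratio of 0.987 (0.882 to 1.10), and Sema4c, a ligand of plexin B2, had 491 against 450, a ratio of 1.09 (0.954 to 1.24). Sema4f was below the filter with 2 reads against 12. All 4 class 6 genes were within 1.5-fold and below 0, from -0.21 to -0.50. Sema6d, a plexin A1 ligand and at 47.4 and 54.8 TPM the most abundant semaphorin gene of these cells, was 1.16-fold lower (1.11 to 1.22). Sema6c, with 88 against 132 reads, was 1.51-fold lower (1.14 to 1.995) in CPM and within 1.5-fold on the scale with 1 CPM added. Sema7a, whose product is held by a lipid anchor, was 1.32-fold lower (1.13 to 1.54), and Plxnc1, its plexin receptor gene, 1.43-fold lower (1.29 to 1.599).

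B-type plexins receive class 4 and 5 semaphorins, and their genes differed by very unequal amounts. Plxnb3 (chromosome X, 73756556 to 73772510), the plexin known from oligodendrocytes, had 120 reads in the cKO-labelled library against 805 in the other. It was 6.74-fold lower (5.55 to 8.23), the largest fold among the receptor genes. Plxnb1 had 1197 reads against 1966 and was 1.65-fold lower (1.53 to 1.77). Plxnb2, at 63.2 and 68.6 TPM the most abundant of all 68 guidance genes in each library, was 1.09-fold lower (1.05 to 1.14). In TPM the share of Plxnb3 within the B-type plexins was 2.88% against 14.0%, while Plxnb2 made up 80.3% against 65.1%. Each of the pairs Sema5a with Plxnb3 and Sema4d with Plxnb1 was therefore lower on the ligand side and on the receptor side in the cKO-labelled library.

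Part of a list of oligodendrocyte genes was also lower. Of all kept genes 10.2% lay at least 1.5-fold lower and 4.22% higher. Of 21 listed markers of the oligodendrocyte lineage 18 were kept, and 13 of those lay at least 1.5-fold lower while 0 lay higher. Their median was -2.35 and the list had a summed level of 2730 (cKO) against 4287 CPM (wild type). The lineage factor gene Sox10 had 60 reads (cKO) against 1046. The list's most abundant genes, the lineage factor genes Olig1 and Olig2, were within 1.5-fold, at 1401 against 1468 CPM and 787 against 848 CPM. The marker Mobp was at 0 reads in the cKO-labelled library, with 6 in the other, and Ermn was at 0 in the wild-type-labelled library, with 2. Astrocyte markers had 16 of 20 lower and 0 higher (median -1.11, summed level 5038 against 9171 CPM), with 0 markers at 0 reads. The part of either lineage in the lower guidance genes was not tested. In a bulk sample, fewer cells of a type and less RNA per cell cannot be told apart.

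Ephrins showed a different makeup rather than a common direction. The B-type ephrins, which span the membrane and signal back into their own cell, were 1 higher, 1 lower and 1 within 1.5-fold. All kept genes had 4.22% higher and 10.2% lower, and 3 genes are too few to set against these shares. Efnb2, the ligand of EphB4 and of other EphB and EphA4 receptors, had 744 reads in the cKO-labelled library against 348 in the other, a ratio of 2.13 (1.87 to 2.43). Efnb3, a midline barrier of corticospinal axons, had 180 against 443 reads and was 2.47-fold lower (2.07 to 2.96). The X-linked Efnb1 had 534 against 377 reads, a ratio of 1.41 (1.23 to 1.61). Per length, Efnb3 was the most abundant of the type in the wild-type-labelled library, with 43.1% of their TPM, and the least abundant in the cKO-labelled library, with 15.3%. Efnb2 held 21.8% and 41.1%. Their summed TPM was 34.6 (cKO) and 30.4 (wild type), so the makeup differed more than the total.

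Among the A-type ephrins, held to the membrane by a lipid anchor, Efna3 was the most abundant at 12.9 (cKO) and 11.6 TPM (wild type), with a ratio in CPM of 1.14 (0.929 to 1.40). Efna2 had 124 reads against 229 and was 1.85-fold lower (1.48 to 2.33). Efna4 had 53 against 25 reads, a ratio of 2.11 (1.29 to 3.55). Efna1, with 19 against 24 reads, did not differ beyond counting error, and Efna5, with 2 against 8, was below the filter.

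Of 11 kept Eph receptor genes 2 were at least 1.5-fold higher and 3 lower, beside 4.22% and 10.2% of all kept genes. Epha2, a receptor known mostly from epithelial cells, had 503 reads in the cKO-labelled library against 270 in the other, a ratio of 1.86 (1.597 to 2.16). Epha7, a receptor of cortical progenitors, had 91 against 26 reads, a ratio of 3.49 (2.23 to 5.62). Epha5 had 767 against 994 reads and was 1.30-fold lower (1.18 to 1.43). Epha2 thus led the EphA receptors in the cKO-labelled library, with 44.7% of their TPM against 24.6%, and Epha5 led them in the wild-type-labelled library, with 56.2% there and 39.7% in the other. Epha10, an Eph receptor whose kinase domain lacks activity, and Epha3 were 3.05-fold (1.90 to 5.07) and 2.53-fold (1.57 to 4.20) lower on 24 against 73 and 25 against 63 reads. Epha4, which binds ephrins of both types, was 1.31-fold lower (1.03 to 1.66). Epha1, Epha6 and Epha8 had at most 2 reads in the cKO-labelled library against 0 in the other, under the floor of 3 reads below which no fold is given. The summed reads of the EphA receptors had a ratio of 0.965 (0.900 to 1.04), which was not detectably different from 1 at this depth.

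EphB receptors are the main partners of B-type ephrins. Of 5 kept genes 1 was at least 1.5-fold lower and 0 higher, beside 10.2% and 4.22% of all kept genes. Below 0 lay 4 of the 5, as did 52.2% of all kept genes. Their summed reads were 1495 against 1872, 1.26-fold lower (1.17 to 1.35). Ephb1 had 209 reads against 477 in the wild-type-labelled library and was 2.29-fold lower (1.94 to 2.71). Ephb3, the most abundant of the type at 13.0 TPM in each library, had 578 against 581 reads and a ratio of 0.991 (0.882 to 1.11). Ephb2 had a ratio of 0.894 (0.790 to 1.01) and Ephb4 of 1.44 (0.908 to 2.29), so neither differed beyond counting error. Ephb6, a receptor without kinase activity, was 1.40-fold lower (1.14 to 1.72).

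**Figure D3:**
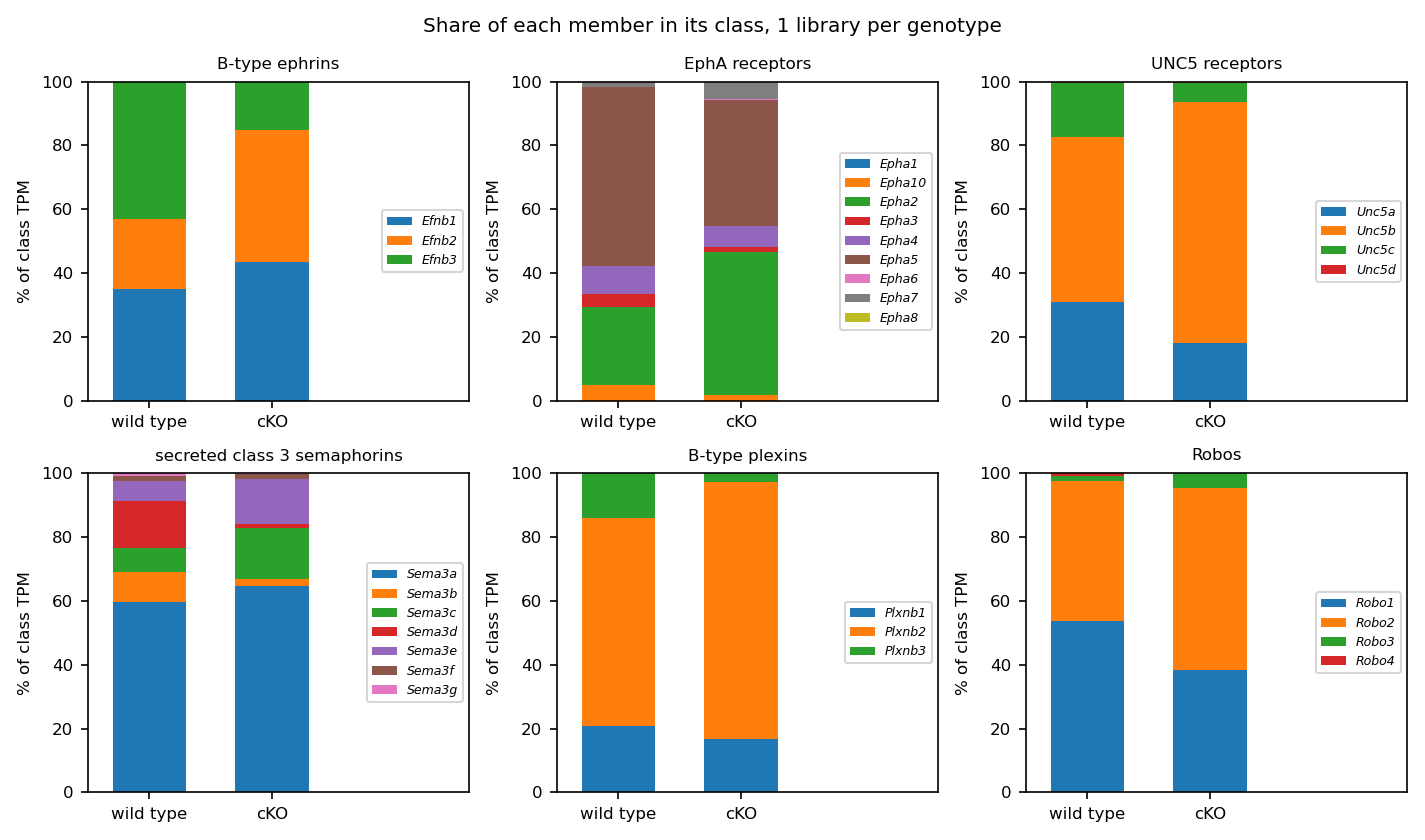
Share of each gene in the summed TPM of its class, in percent, for 6 classes, with wild type on the left and cKO on the right of each panel, 1 library each. Efnb3 makes up 43.1% of the B-type ephrins in the wild-type-labelled library and 15.3% in the other, and Unc5b makes up 51.6% and 75.4% of the UNC5 receptors.

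Of 4 kept Slit and Robo genes 3 were at least 1.5-fold lower and 0 higher, beside 10.2% and 4.22% of all kept genes. Robo1, the receptor that steers commissural axons and cortical interneurons, had 200 reads in the cKO-labelled library against 555 in the other, or 2.79-fold lower (2.37 to 3.29). Robo2 had 326 against 499 and was 1.54-fold lower (1.33 to 1.77), close to the 1.5-fold limit. On the scale with 1 added, Robo2 fell short of that limit with TMM or median-of-ratios scaling, deposited normalized counts or TPM. Robo2 thereby exceeded Robo1 in the cKO-labelled library, at 3.43 against 2.30 TPM, whereas Robo1 exceeded Robo2 in the wild-type-labelled library, at 6.43 against 5.26 TPM. The summed reads of the Robo genes were 535 against 1065, 1.998-fold lower (1.80 to 2.22). Among the ligands, Slit1 had 208 against 227 reads and a ratio of 0.913 (0.753 to 1.11), within counting error. Slit2 was 7.03-fold lower (2.74 to 23.0) on 5 against 35 reads. It was kept only through the wild-type-labelled library, at 0.264 (cKO) against 1.86 CPM, so the filter favoured its lower call. Robo3, with 9 reads in each library, and the endothelial Robo4, with 0 against 2, were below the filter.

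Netrin genes stayed within 1.5-fold. Ntn1, the netrin that attracts commissural axons through DCC, was the most abundant of them at 50.0 (cKO) and 64.7 TPM (wild type), and its 3156 reads against 4088 made it 1.30-fold lower (1.24 to 1.36). Ntn4, a netrin that also binds laminins of basement membranes, had 675 against 487 reads, a ratio of 1.38 (1.23 to 1.55). Ntn3 had 178 against 171 reads, a ratio of 1.04 (0.836 to 1.29), and Ntn5 was below the filter. The share of Ntn4 in the netrins' TPM was 34.0% against 22.6%.

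The netrin receptors were unequal. Unc5c, a repulsive netrin receptor of migrating cerebellar neurons, had 129 reads in the cKO-labelled library against 386 in the other, 3.004-fold lower (2.46 to 3.70). Unc5a had 161 against 279 and was 1.74-fold lower (1.43 to 2.13). Unc5b, the family member also known from blood vessels and as a dependence receptor, went the other way with 1021 against 725 reads, a ratio of 1.40 (1.27 to 1.55). Per length Unc5b held 75.4% of the UNC5 receptors in the cKO-labelled library against 51.6% in the other, while the summed TPM of the type was 21.0 and 21.8. Dcc had 553 against 624 reads, a ratio of 0.883 (0.786 to 0.991), and Unc5d was below the filter with 9 against 13. Unc50, the gene outside the guidance systems, had 880 against 909 reads (ratio 0.964, 0.878 to 1.06).

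The partners of these proteins outside the name pattern were read from fixed lists. Among co-receptors and further ligands, 2 of 30 kept genes lay at least 1.5-fold higher while 10 lay lower (median -0.28). Of all kept genes 4.22% lay higher and 10.2% lower. The repulsive ligand gene Draxin, which binds netrin receptors, had 252 reads against 516 and was 2.06-fold lower (1.77 to 2.40), and the netrin receptor gene Dscam was 1.595-fold lower (1.503 to 1.69). Vegfa, the growth factor that shares Nrp1 with SEMA3A, had 2462 against 7630 reads and was 3.11-fold lower (2.97 to 3.26), opposite to Nrp1. Met, a receptor tyrosine kinase that associates with B-type plexins, had 521 against 186, a ratio of 2.79 (2.36 to 3.32). Mag, which had 1 read against 225, is also a member of the oligodendrocyte list.

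Effector genes inside the cell were read by guidance system. Of 30 kept semaphorin and plexin effectors 3 were higher and 3 lower (median -0.11). The extremes were both Rnd genes, small GTPases that bind plexins, with Rnd3 at a ratio of 2.01 (1.82 to 2.22) and Rnd2 2.28-fold lower (2.11 to 2.47). Of 27 ephrin and Eph effectors 3 were higher and 3 lower (median 0.07), with the exchange factor gene Vav3 at 5222 against 2648 reads, a ratio of 1.96 (1.87 to 2.06), and Tns2 3.97-fold lower (2.44 to 6.75). Of 17 Slit and Robo effectors 0 were higher and 0 lower (median 0.08), and of 19 netrin effectors 0 were higher and 3 lower (median -0.03). Among all kept genes 4.22% were higher and 10.2% lower, and counts this small do not set an effector list apart from them.

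**Figure D4:**
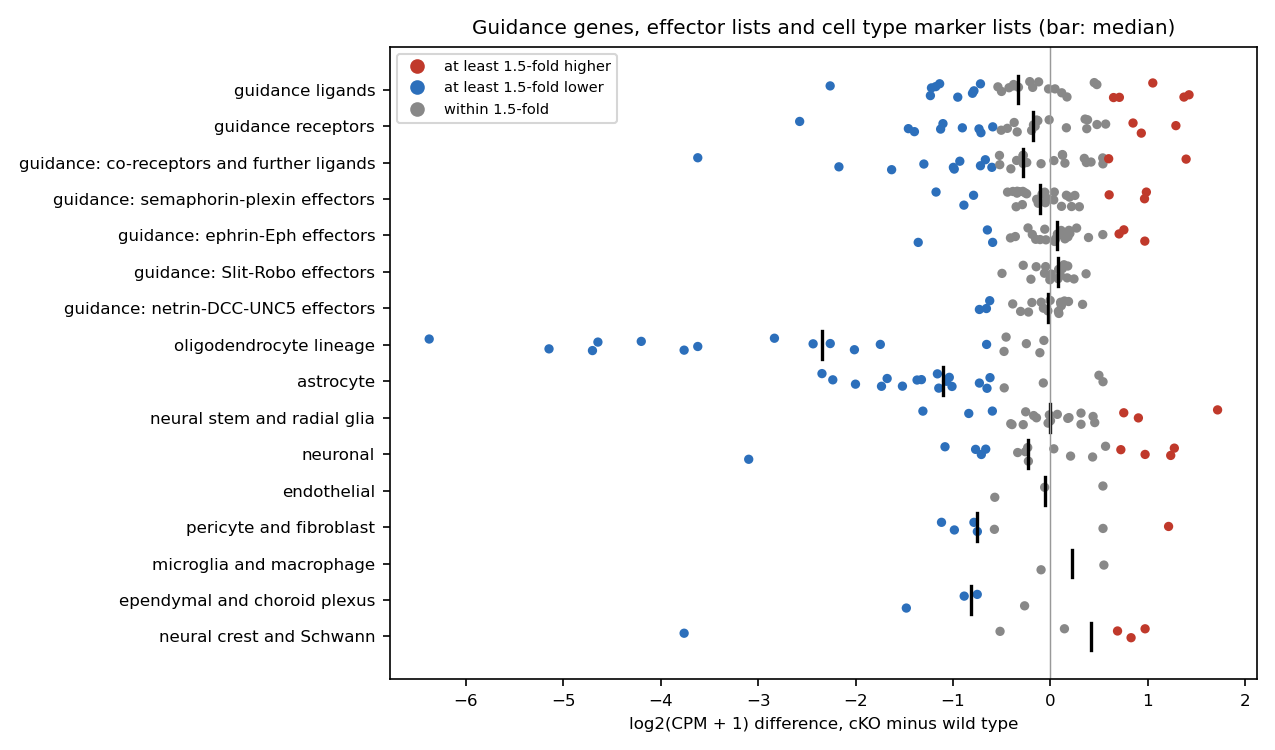
Difference in log2(CPM + 1), cKO minus wild type, of each kept gene in the guidance ligands and receptors, the effector lists and the cell type marker lists, with a bar at each list's median. The oligodendrocyte (median -2.35) and astrocyte (median -1.11) lists lie to the left of the guidance ligands (-0.33) and receptors (-0.18).

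Markers of other cell types that carry guidance genes were also read, beside 4.22% of all kept genes at least 1.5-fold higher and 10.2% lower. Neural stem and radial glia markers had 3 of 22 higher and 3 lower (median -0.01, summed level 12607 against 9892 CPM). Of them 11 lay above 0 and 11 below, so the higher sum was not a common direction. Vim (4578 against 2716 CPM) and Tnc (2402 against 731 CPM) weighed most in it. Fabp7 (1287 against 1947 CPM) and Ptprz1 (2037 against 2472 CPM) went the other way. Neuronal markers had 4 of 17 kept genes higher and 5 lower (median -0.23, 1487 against 1681 CPM). Endothelial markers summed to 11.8 against 12.5 CPM, with 0 of 3 kept genes past 1.5-fold, and Robo4 of that list was at 0 in the cKO-labelled library. Pericyte and fibroblast markers summed to 89.8 against 79.4 CPM, with 1 of 7 higher and 4 lower (median -0.75), and Abcc9 and Lum were at 0 in the wild-type-labelled library. Microglia and macrophage markers summed to 33.6 against 33.8 CPM, with 0 of 2 kept genes past 1.5-fold on the scale with 1 CPM added. In CPM itself Cd68 of that list had a ratio of 1.62 (1.15 to 2.30). There Cx3cr1 and Csf1r were at 0 in the cKO-labelled library and Tmem119 and Itgam in the other. Among 4 kept markers of ependyma and choroid plexus 0 were higher and 3 lower (median -0.82, 11.3 against 17.9 CPM), with Ttr at 0 in the wild-type-labelled library. The 3 lower ones, Otx2, Aqp1 and Rsph1, reached 1 CPM only in the wild-type-labelled library. The filter therefore favoured a lower call for them, and their count is not comparable with the share of all kept genes. Among 6 kept markers of neural crest and Schwann cells 3 were higher and 1, Sox10, was lower (median 0.42, 455 against 313 CPM). The part of these cell types in the guidance genes was not tested.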

How the data were processed

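Total RNA of cultured mouse neural stem cells was sequenced, 1 library per genotype label, on the build GRCm38.p6 according to the submitters' processing notes. For the aligner, counter, annotation and strand setting: not given in the sources used here. In the table the authors deposited estimated counts (89.8% and 90.0% whole numbers), TPM, FPKM and a normalized read count signal, which equalled the count rounded up times 1.00261 (cKO) or 0.997397 (wild type). Counts were rounded and divided by the column total to give CPM. Genes at 1 CPM in at least 1 library were kept, and differences used 1 added CPM. A gene at 1 CPM in only 1 library thus entered through the library where it was higher, which favours a call in that direction. Intervals and the floor of 3 reads (0.159 CPM) cover counting error only, since PCR copies cannot be told from molecules here. Levels of different genes were compared in TPM. The members, the 5 partner and 10 marker lists and the naming rule (all members at least 1.5-fold apart, the most abundant of each class, list extremes) were chosen with earlier results of these data known. A few genes of these lists are not reported here. The motifs and the mention of Draxin, Dscam, Vegfa, Olig1, Olig2, Sox10, Sox2 and Nes were chosen after values were seen. Lists share genes, such as Mag, Kdr, Ptprz1, Sox10 and Robo4. Coordinates and upstream sequences came from RefSeq tables of GRCm38.p6, where all 69 members matched, and GC content from GENCODE transcripts (98.3% of kept genes). The interval code was run on simulated reads with counting error only, which cannot speak to variation between animals or cultures. Python 3.11.15, SciPy 1.17.1, edgeR 4.0.16 and DESeq2 1.42.0 were used, the last pair for scaling factors only.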

Additional observations from a re-analysis of the deposited data

How the results depend on the processing

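No paired analysis was possible because each group had 1 library. Folds in this section are on the scale with 1 added, also for TPM, unless another added value is given. The count of lower members was 18 in the analysis reported and 9 with 5 CPM added, and at 2-fold the counts were 4 higher and 10 lower. The median of the members was -0.18 with TMM scaling and -0.225 with 0.5 CPM added, beside -0.20. Under the other settings (median-of-ratios factors, totals without the 10 most abundant genes, deposited TPM, deposited normalized counts, no filter, a filter at 5 CPM, GC trend removed) these counts stayed within 1.5 times and the median within 0.02. Of 26 members past 1.5-fold, 14 stayed past it under all 10 alternatives to scaling, unit, added value, filter and GC content: Plxnb3, Plxnb1, Efnb3, Sema3c, Sema3d, Sema3e, Sema4g, Sema5a, Unc5c, Nrp1, Ephb1, Efnb2, Epha2 and Robo1. With 5 CPM added 10 members were no longer past it (Sema4a, Efna2, Unc5a, Epha10, Sema3b, Efna4, Robo2, Sema4d, Slit2 and Epha3), and the filter at 5 CPM left out 7. The larger added value shrinks every difference by construction, most for low genes. None of the 26 changed sign. Ephb3 and Sema4b, within 1.5-fold, changed sign with TMM scaling and GC correction, and Ephb3 also with median-of-ratios factors and the deposited normalized counts. Plxna4 passed 1.5-fold with TMM scaling, 0.5 CPM added and GC correction. Among the 26, the exons of Efna4, Epha10, Ephb1, Plxnb1, Unc5a and Unc5c overlap another annotated gene on the opposite strand. So do those of some members within 1.5-fold, such as Plxna1 (970 shared bases) and Sema4c (334). Without a stated strand setting reads there cannot be told apart. For members under 100 reads per library, counting error limits the fold.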
